A study of Mus musculus with 34 samples.

Results

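The activity-regulated genes are transcripts that neurons make within minutes to hours of strong synaptic input. The 10 described here are Fos, Fosb, Junb, Egr1, Egr3, Npas4, Nr4a1, Arc, Nptx2 and Inhba, out of 24485 gene symbols in the count tables. They were chosen by name, with earlier results of these data known. All 10 were found by symbol in each of the 3 tables, and all 10 passed the filter on low counts in each comparison. The libraries came from the hippocampus of wild-type mice given fluoxetine, a selective serotonin reuptake inhibitor used as an antidepressant, or vehicle. Mossy cells, the excitatory neurons of the dentate hilus, had 7 fluoxetine and 6 vehicle libraries. Hippocampus had 7 fluoxetine and 6 vehicle libraries, and granule cells, the densely packed excitatory neurons that project to mossy cells and CA3, had 4 of each. For every library the labels give translating ribosome affinity purification, which pulls down tagged ribosomes with the mRNA they carry, as the extraction. They state no dose, duration, age, sex, strain, driver line or tag, and do not say whether the hippocampus libraries hold bound or input RNA. Whether replicates are separate animals is not stated either, and a p-value here reflects only how far these libraries vary, which may be technical.

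A mossy-cell library held between 23581121 and 43452534 counts, a hippocampus library between 23857790 and 44952269, and a granule-cell library between 14111950 and 39988227. Under vehicle, 6 mossy cell markers summed to 527 to 734 CPM (counts scaled to a common library total) in mossy-cell libraries and to 140 to 156 CPM in hippocampus, and all 6 differed, 5 of them higher in mossy cells. Granule cell markers summed to 1130 to 1300 CPM in granule-cell libraries, against 232 to 270 CPM in mossy cells and 495 to 579 CPM in hippocampus. The mossy-cell libraries also held interneuron markers, at a sum of 2810 to 3950 CPM, against 475 to 536 CPM in hippocampus. CA1 markers summed to 417 to 780 CPM in mossy-cell libraries and 258 to 325 CPM in hippocampus, with 3 of 4 genes higher and 1 lower. The Rn45s ribosomal transcript took 15.32 to 22.53% of counts in mossy cells, 11.48 to 15.31% in hippocampus and 0.69 to 7.71% in granule cells. The part of these differences in the comparisons between sources was not tested. In bulk libraries such as these, fewer cells of a type and less RNA per cell cannot be told apart.

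Calcium that enters through NMDA receptors and L-type channels activates kinases and phosphatases, which act on CREB, SRF and MEF2 already bound near these genes, so that transcription starts without new protein. The first products are transcription factors. Fos, Fosb and Junb encode subunits of AP-1, a dimer of a Fos and a Jun protein. Egr1 and Egr3 encode zinc finger factors, Nr4a1 encodes an orphan nuclear receptor, and Npas4 encodes a factor that responds to calcium entry and adjusts inhibitory synapses. The other products act at the synapse or outside the cell. Arc promotes the removal of AMPA receptors, Nptx2 encodes a secreted pentraxin that clusters them, and Inhba encodes the subunit of activin A. In the dentate gyrus the group is known for sparse induction in granule cells during exploration and for strong induction by seizures.

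In the GRCm38 annotation, the synaptic and secreted genes lie apart, with Arc at chr15:74669083-74672570, Nptx2 at chr5:144545902-144557478 and Inhba at chr13:16011851-16031621. Of the AP-1 genes, Fos lies at chr12:85473890-85477273, Fosb at chr7:19302696-19310051 and Junb at chr8:84974484-84978718.

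RefSeq promoter windows of GRCm38.p6, from 250 bases before the start to 50 after it, were at hand for 6 of the 10 genes, which were Fos, Fosb, Junb, Npas4, Nr4a1 and Inhba. The letters TGACG, the core of the cAMP response element (CRE) that CREB binds, stood on either strand in 5 of the 6, against 20.8% of all 32851 promoter windows. Nr4a1 held 4 matches, Fos and Npas4 held 2 each, Fosb and Junb held 1 each, and Inhba held none. The whole palindrome TGACGTCA, which contains the core, was in 0 of the 6 and in 1.79% of all windows. The AP-1 letters TGANTCA (7.81% of all windows), the EGR letters GCGTGGGCG (0.612%) and the CArG box that SRF binds (1.63%) were also in 0 of the 6, each searched on both strands. The 250 bases upstream of the start are shown for Npas4, Nr4a1, Fosb and Inhba. Npas4 was the gene that passed the fluoxetine test in hippocampus, and Nr4a1 the gene whose levels followed those of Npas4 most closely. Fosb and Inhba stood high together in the libraries described further on. Each sequence is written 5′ to 3′ on the strand of the gene, with the core or its reverse complement CGTCA in capitals.
Npas4 (chr19:4989972-4990221, minus strand): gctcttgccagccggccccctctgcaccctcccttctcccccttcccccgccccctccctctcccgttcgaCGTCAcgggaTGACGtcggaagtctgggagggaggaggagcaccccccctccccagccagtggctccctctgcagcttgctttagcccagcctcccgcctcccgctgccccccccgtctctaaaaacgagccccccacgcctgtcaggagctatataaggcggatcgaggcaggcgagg
Nr4a1 (chr15:101266596-101266845, plus strand): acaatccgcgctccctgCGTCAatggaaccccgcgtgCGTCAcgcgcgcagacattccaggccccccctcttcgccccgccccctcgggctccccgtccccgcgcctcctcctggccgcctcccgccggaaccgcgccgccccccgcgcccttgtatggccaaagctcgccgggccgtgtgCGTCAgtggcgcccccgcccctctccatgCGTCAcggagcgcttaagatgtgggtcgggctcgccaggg
Fosb (chr7:19310046-19310295, minus strand): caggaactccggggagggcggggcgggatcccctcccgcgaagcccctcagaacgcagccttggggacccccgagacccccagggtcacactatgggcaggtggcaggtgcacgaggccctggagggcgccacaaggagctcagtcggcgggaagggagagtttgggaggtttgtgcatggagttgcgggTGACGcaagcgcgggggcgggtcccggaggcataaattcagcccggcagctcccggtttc
Inhba (chr13:16011601-16011850, plus strand): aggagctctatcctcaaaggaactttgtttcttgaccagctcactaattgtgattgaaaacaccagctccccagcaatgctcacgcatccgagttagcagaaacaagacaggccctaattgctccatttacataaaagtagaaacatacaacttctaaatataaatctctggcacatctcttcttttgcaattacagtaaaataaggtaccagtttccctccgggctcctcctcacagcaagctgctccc
A match describes letters in the window and does not show that a factor binds there.

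Under vehicle, Egr1 was the most abundant of the 10 per kilobase of exon in each source, followed by Arc. Egr1 stood at 29.0 ± 5.8 CPM per kb in mossy cells, 34.8 ± 3.84 in hippocampus and 31.7 ± 12.6 in granule cells (SD, n = 6, 6 and 4). Arc stood at 11.1 ± 1.81, 16.8 ± 2.77 and 17.3 ± 4.93 CPM per kb in the same order. In mossy cells, Egr3 (5.44 ± 1.03 CPM per kb), Nr4a1 (5.30 ± 1.33), Nptx2 (4.65 ± 0.840) and Junb (4.16 ± 0.882) came next and lay within each other's spread. Fos was lower at 1.74 ± 0.624 CPM per kb, and Fosb at 0.819 ± 0.0696 and Npas4 at 0.686 ± 0.460 did not differ beyond their spread. Inhba was the lowest there, at 0.132 ± 0.0564 CPM per kb. In hippocampus the order was Egr3 (7.33 ± 0.887 CPM per kb), Nr4a1 (5.37 ± 0.382), Junb (4.07 ± 0.596) and Nptx2 (1.88 ± 0.384). Fosb (0.903 ± 0.111), Fos (0.887 ± 0.220), Inhba (0.768 ± 0.114) and Npas4 (0.655 ± 0.224) followed there within overlapping ranges. In granule cells Nr4a1 (7.89 ± 3.63 CPM per kb) stood above Egr3 (4.25 ± 3.10) and Junb (3.18 ± 2.08), whose spreads overlapped its own. Inhba (2.18 ± 1.05), Fos (2.14 ± 1.22), Nptx2 (2.02 ± 0.856) and Fosb (1.57 ± 0.638) were close to each other in granule cells, above Npas4 at 0.674 ± 0.560.

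**Figure D1:**
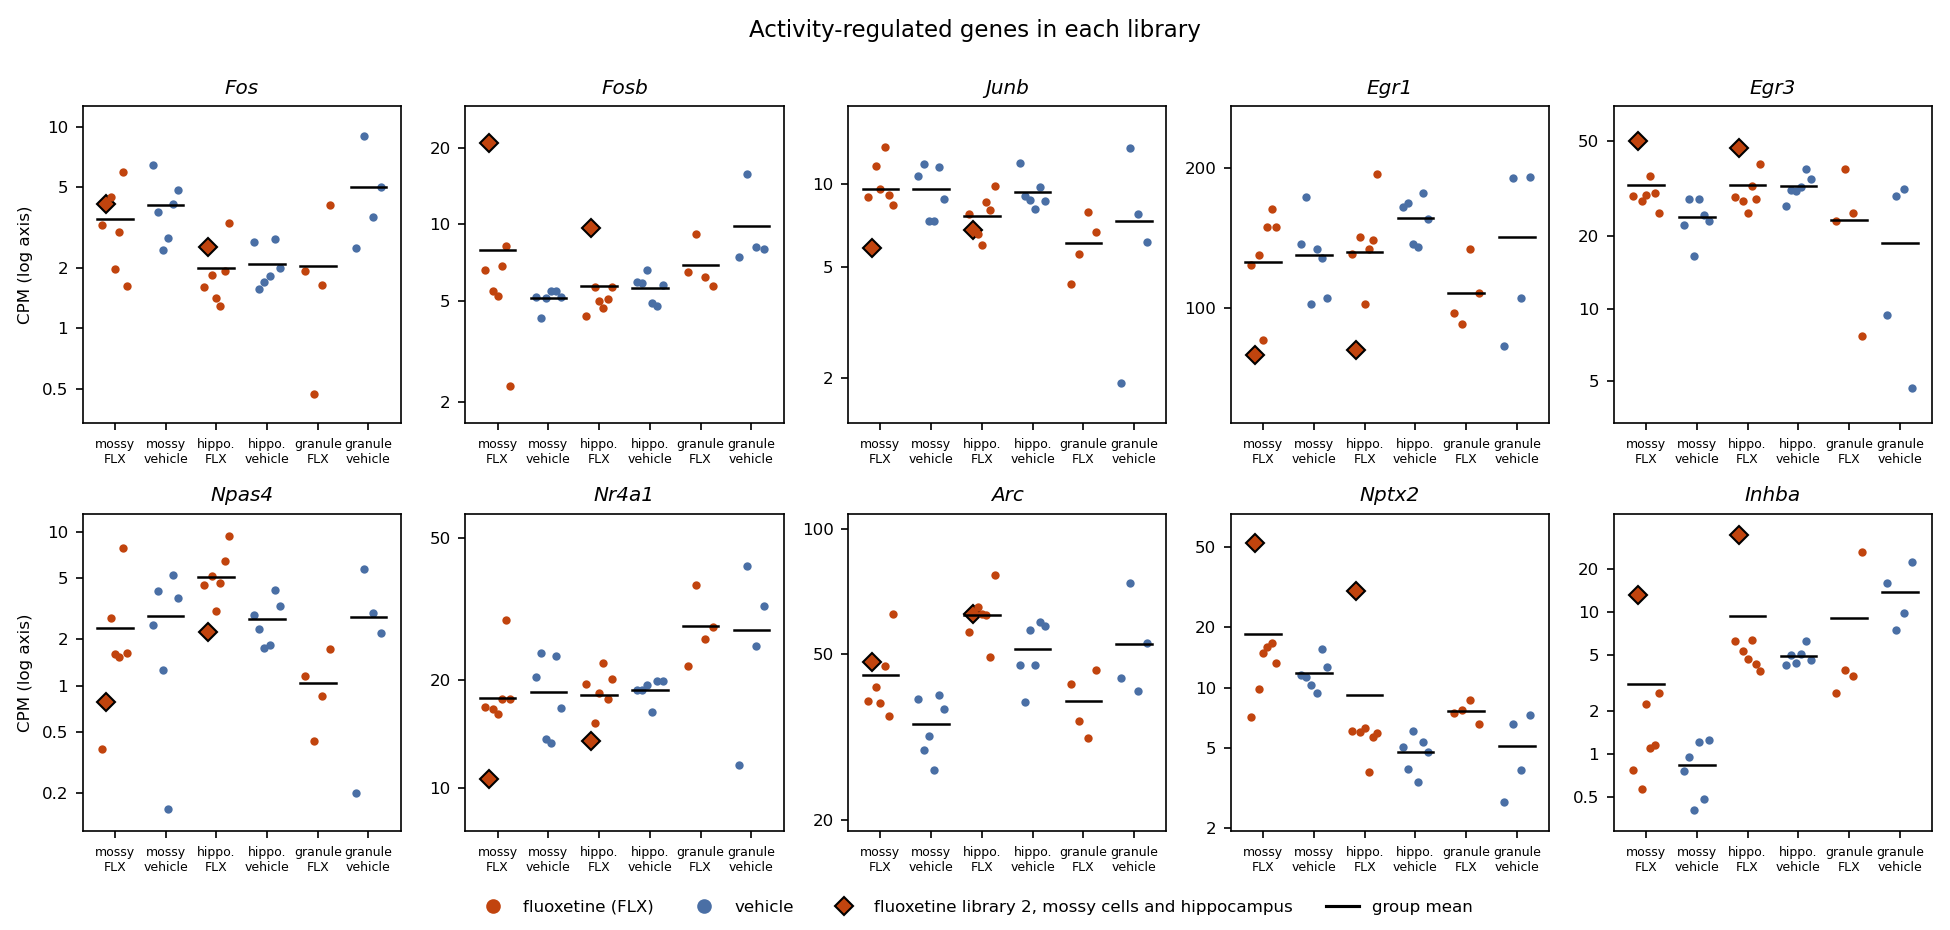
Level of each gene in every library, in CPM on a log axis, with fluoxetine (FLX) left of vehicle in each source. Points are libraries, black lines are group means, and outlined diamonds are fluoxetine library 2 of mossy cells and of hippocampus, which is the highest library of its group for Nptx2 (52.2 and 30.3 CPM) and the lowest for Egr1 (79.2 and 81.2 CPM).

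Of the 10 genes, 1 passed the fluoxetine test in 1 of the 3 sources: Npas4 was higher with fluoxetine in hippocampus. No other gene of the group passed the test in mossy cells, hippocampus or granule cells. In granule cells the test could call few changes of 2-fold, as given below. A gene that did not pass there may still have changed. Arc was 1.31-fold in mossy cells and 1.21-fold in hippocampus, short of the threshold in both. The larger folds of Inhba and Nptx2 in mossy cells and hippocampus shrank without fluoxetine library 2, to 1.68-fold for Inhba in mossy cells.

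In hippocampus, Npas4 had 2.24 to 9.39 CPM with fluoxetine (median 4.66, n = 7), against 1.75 to 4.17 CPM with vehicle (median 2.61, n = 6). The groups overlapped, with 5 of the 7 fluoxetine libraries above every vehicle library and fluoxetine libraries 2 and 4 within the vehicle range. The mean was 5.08 ± 2.36 CPM with fluoxetine and 2.71 ± 0.927 CPM with vehicle (SD), a log2 fold change of 0.91 ± 0.28 (SE; 1.88-fold, edgeR quasi-likelihood test, adjusted p = 0.0209). It passed in each of the 13 fits without 1 library, with an adjusted p from 0.00788 to 0.0457 and a log2 fold change from 0.69 to 1.07. In a fit over all 34 libraries, which share 1 estimate of the spread, the value was 0.91 and the adjusted p = 0.467. This was 1 of 10 genes called, in a comparison where 30.2% of 15596 tested genes were called and 15.5% were called higher, so the share of the 10 was not above that of all genes. At an unadjusted p under 0.05 the count was 5 of the 10 and 42.1% of all genes.

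Markers of other cells moved in the same comparison. Microglial markers rose for 6 of 7 genes and summed to 40.5 to 189 CPM with fluoxetine (median 53.5), against 25.3 to 33.5 CPM with vehicle (median 31.0). Astrocyte markers rose for 5 of 6 genes, at 1820 to 5690 CPM with fluoxetine (median 1930) and 1420 to 1750 CPM with vehicle (median 1590). Of the granule cell markers 3 of 6 fell and 1 rose, and their sum was 366 to 489 CPM with fluoxetine, against 495 to 579 CPM with vehicle. Choroid plexus markers fell for 3 of 3 tested genes, at 20.9 to 109 CPM with fluoxetine and 21.5 to 5330 CPM with vehicle. No gene of these lists was at 0 in every library of a group. Their part in the Npas4 difference was not tested.

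Junb in hippocampus had 6.02 to 9.85 CPM with fluoxetine (median 7.78), against 8.09 to 11.9 CPM with vehicle (median 8.89). Of the 7 fluoxetine libraries, 5 lay below every vehicle library, and the log2 fold change was -0.29 ± 0.12 (adjusted p = 0.0781, edgeR). Egr1 had 81.2 to 194 CPM with fluoxetine (median 134) and 135 to 177 CPM with vehicle (median 160). Its fluoxetine libraries spanned the whole vehicle range, and the log2 fold change was -0.25 ± 0.14 (adjusted p = 0.178, edgeR). Without fluoxetine library 7, which had the highest Egr1 level, both passed, with a log2 fold change of -0.36 each (adjusted p = 0.0276 for Junb and 0.0255 for Egr1, edgeR). Arc had 49.1 to 77.5 CPM with fluoxetine (median 62.3) and 38.3 to 59.8 CPM with vehicle (median 52.1). Of the 7 fluoxetine libraries, 5 lay above every vehicle library, and the log2 fold change was 0.27 ± 0.10 (adjusted p = 0.0566, edgeR). The call for Arc turned on the scaling and on which library was left out, as given in the closing section.

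Fos, Fosb, Egr3 and Nr4a1 stayed close to vehicle in hippocampus, with log2 fold changes from -0.06 to 0.02 and standard errors from 0.10 to 0.23. Fos had 1.29 to 3.34 CPM with fluoxetine (median 1.83) and 1.56 to 2.78 CPM with vehicle (median 1.90). Nr4a1 had 13.5 to 22.4 CPM with fluoxetine (median 18.5) and 16.3 to 19.9 CPM with vehicle (median 19.1). In both genes the fluoxetine libraries spanned the whole vehicle range and reached below and above it.

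In mossy cells 0 of the 10 genes passed the edgeR test, where 9.31% of 14229 tested genes did, and 3 of the 10 had an unadjusted p under 0.05 (23.4% of all genes). DESeq2's Wald test called 3 of them (Egr3, Arc and Inhba) and limma-voom 2 (Egr3 and Arc). Over all genes, the edgeR test called 1146 higher and 179 lower. The alternative fits, these tests among them, called 783 to 1473 higher and 92 to 417 lower. Arc had 35.5 to 62.4 CPM with fluoxetine (median 41.7, n = 7), against 26.3 to 39.8 CPM with vehicle (median 34.3, n = 6). The groups overlapped, with 4 fluoxetine libraries above every vehicle library, and the log2 fold change was 0.39 ± 0.13 (adjusted p = 0.0719, edgeR). Egr3 had 25.0 to 49.8 CPM with fluoxetine (median 29.8) and 16.5 to 28.7 CPM with vehicle (median 23.8). Of the 7 fluoxetine libraries, 5 were above every vehicle library, and the log2 fold change was 0.44 ± 0.16 (adjusted p = 0.0806, edgeR). It was 0.50 without fluoxetine library 7, the lowest of its group (adjusted p = 0.0397, edgeR), and 0.31 without fluoxetine library 2, the highest (adjusted p = 0.173, edgeR).

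Npas4 in mossy cells had 0.384 to 7.94 CPM with fluoxetine (median 1.61) and 0.158 to 5.25 CPM with vehicle (median 3.11). Both groups were spread over more than an order of magnitude, and the highest library of all was fluoxetine library 6. The log2 fold change was -0.25 ± 0.61 (adjusted p = 0.853, edgeR), and -0.98 without that library (adjusted p = 0.315, edgeR). Fos had 1.63 to 5.99 CPM with fluoxetine (median 3.26) and 2.45 to 6.5 CPM with vehicle (median 3.96), a log2 fold change of -0.22 ± 0.30 (adjusted p = 0.709, edgeR). Junb, Egr1 and Nr4a1 differed little, with log2 fold changes from -0.06 to 0.00 and standard errors from 0.16 to 0.19. Microglial markers rose with fluoxetine in these libraries for 4 of 6 tested genes. Their sum was 16.4 to 98.6 CPM (median 23.9), against 8.7 to 13.5 CPM with vehicle (median 11.5). Astrocyte markers rose for 2 of 6, at 420 to 1370 CPM (median 503), against 366 to 522 CPM with vehicle (median 425).

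In granule cells 0 of the 10 genes passed and 0 had an unadjusted p under 0.05, in a comparison with 0.0% of 14236 genes called by edgeR and 7.42% at an unadjusted p under 0.05. DESeq2's Wald test also called 0 of the 10, and of all genes 54 higher and 23 lower. In simulated data the edgeR comparison in granule cells recovered 1.49% of 1.5-fold, 10.4% of 2-fold and 74.2% of 4-fold changes. In hippocampus these shares were 68.7%, 79.1% and 95.5%. No gene of the marker lists passed, in a comparison where no gene did. Granule cell markers summed to 884 to 1040 CPM with fluoxetine, against 1130 to 1300 CPM with vehicle. Astrocyte markers summed to 1310 to 1730 CPM with fluoxetine and 959 to 1150 CPM with vehicle. Microglial markers summed to 61.2 to 88.3 CPM and 37.1 to 61.5 CPM in the same order. The part of these shifts in the values below was not tested. Fos had 1.93, 0.473, 1.64 and 4.11 CPM with fluoxetine, against 2.51, 9.05, 3.55 and 5.05 CPM with vehicle. Of the 4 fluoxetine libraries, 3 were below every vehicle library, and the log2 fold change was -1.31 ± 0.71 (adjusted p = 0.705, edgeR). Npas4 had 1.15, 0.436, 0.855 and 1.74 CPM with fluoxetine, against 0.199, 5.78, 2.99 and 2.19 CPM with vehicle. The lowest library was a vehicle library, the other 3 vehicle libraries were above all 4 fluoxetine libraries, and the log2 fold change was -1.42 ± 0.90 (adjusted p = 0.752, edgeR).

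Arc in granule cells had 42.4, 34.5, 31.5 and 45.8 CPM with fluoxetine, against 43.7, 74.1, 40.7 and 53.2 CPM with vehicle. The groups overlapped, and the log2 fold change was -0.46 ± 0.25 (adjusted p = 0.7, edgeR). Egr3 spread widely in both groups, with 23.1, 38.0, 25.0 and 7.73 CPM with fluoxetine and 9.40, 29.4, 31.4 and 4.67 CPM with vehicle. Library 4 was the lowest of its group in both, and the log2 fold change was 0.33 ± 0.55 (adjusted p = 0.919, edgeR). Inhba had 2.69, 3.93, 3.54 and 26.4 CPM with fluoxetine and 15.9, 7.42, 9.87 and 22.4 CPM with vehicle. The first 3 fluoxetine libraries were below every vehicle library while fluoxetine library 4 was above them all, and the log2 fold change was -0.62 ± 0.66 (adjusted p = 0.860, edgeR). Without that library it was -2.06 (adjusted p = 0.425, edgeR). Nptx2 had 7.50, 7.71, 8.69 and 6.57 CPM with fluoxetine, against 2.71, 6.6, 3.90 and 7.28 CPM with vehicle, a log2 fold change of 0.56 ± 0.45 (adjusted p = 0.796, edgeR). Of its fluoxetine libraries, 3 of 4 were above every vehicle library.

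**Figure D2:**
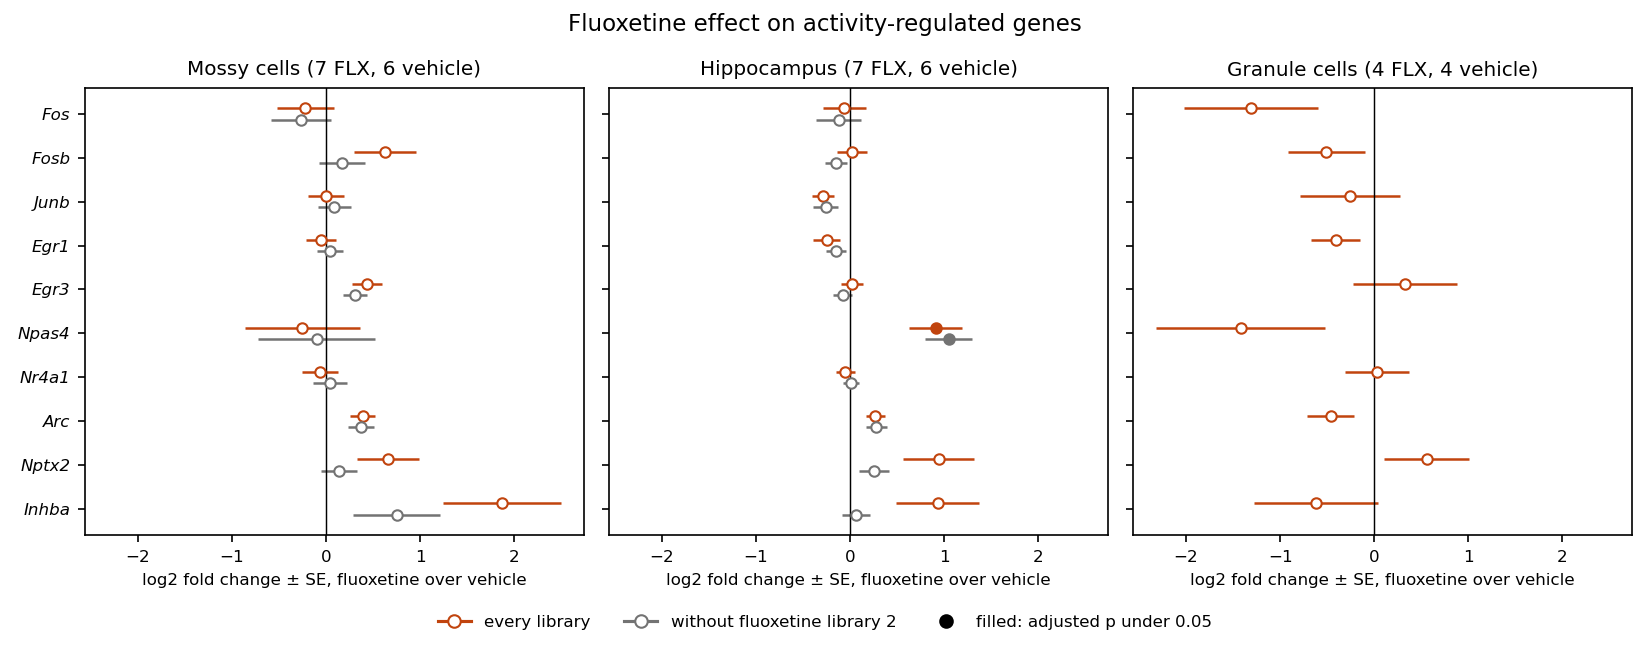
Fitted log2 fold change of fluoxetine over vehicle for each gene, with its standard error, in the 3 sources. Red points use every library and grey points leave out fluoxetine library 2, and filled points have an adjusted p under 0.05, which is Npas4 in hippocampus at 0.91 and 1.05. Nptx2 and Inhba sit near 0.94 and 0.93 in hippocampus with library 2 and at 0.25 and 0.06 without it.

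Fluoxetine library 2 stood apart for these genes in both mossy cells and hippocampus. Nptx2 was 52.2 CPM in fluoxetine library 2 of mossy cells, with 7.13 to 16.7 CPM in the other 6 fluoxetine libraries and 9.41 to 15.5 CPM with vehicle. In hippocampus it was 30.3 CPM in library 2, with 3.79 to 6.33 CPM in the other fluoxetine libraries and 3.40 to 6.08 CPM with vehicle. Apart from library 2, the Nptx2 levels of fluoxetine and vehicle libraries covered nearly the same range. Inhba was 13.2 CPM in fluoxetine library 2 of mossy cells, against 0.566 to 2.70 CPM in the other fluoxetine libraries and 0.403 to 1.25 CPM with vehicle. Fluoxetine libraries 4 and 7 of mossy cells, at 2.24 and 2.70 CPM, were also above every vehicle library for Inhba. In hippocampus Inhba was 34.9 CPM in library 2, against 3.82 to 6.30 CPM in the other fluoxetine libraries and 4.24 to 6.24 CPM with vehicle. Fosb followed with 20.9 CPM in library 2 of mossy cells (2.30 to 8.24 in the other fluoxetine libraries, 4.29 to 5.48 with vehicle) and 9.67 CPM in hippocampus (4.37 to 5.67 and 4.78 to 6.62). Egr3 was also the highest of all libraries of its source there, at 49.8 CPM in mossy cells and 46.7 CPM in hippocampus.

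Other genes of the group were low in the same libraries. Egr1 was 79.2 CPM in fluoxetine library 2 of mossy cells and 81.2 CPM in hippocampus, the lowest of the 13 libraries of each source. Nr4a1 was 10.6 and 13.5 CPM, also the lowest of the 13 in each. Junb was 5.87 and 6.80 CPM, and Npas4 was 0.787 and 2.24 CPM, both in the lower part of their source. Within that library number, the secreted pentraxin, the activin subunit, Fosb and Egr3 were high while Egr1, Nr4a1, Junb and Npas4 were low. Among 12397 genes ranked by the smaller of the library's 2 ratios to the median of the other 6 fluoxetine libraries, Nptx2 was in place 2 for higher levels, Fosb in place 45 and Egr3 in place 93. For lower levels, ranked by the larger of the 2 ratios, Npas4 was in place 8, Egr1 in place 34 and Nr4a1 in place 162. The library was singled out after the data were seen, so these places describe it and test nothing. Inhba was not ranked, because its vehicle mean in mossy cells was under 1 CPM.

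Library 2 was over 2-fold higher than that median in both sources for 35 genes, library 4 for 91, and each of the other 5 numbers for 1 to 3. The genes that led library 2 were chosen after their values were seen. They were Prss23, a serine protease gene (34 CPM in mossy cells and 24.5 CPM in hippocampus), then Nptx2, then Bmp3, a bone morphogenetic protein gene (38.2 and 38.5 CPM). Npy, the neuropeptide Y gene (1540 and 101 CPM), and Acvr1c, which encodes an activin receptor (24.7 and 74.7 CPM), were among the first 12. Marker sums of this library were 231 CPM (mossy cells) and 366 CPM (hippocampus, the lowest of all) for granule cells, and 244 and 110 CPM for CA3, the highest of each source. Their part in the values of library 2 was not tested.

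Without library 2 the fluoxetine comparisons of Inhba and Nptx2 in both sources, and of Fosb in mossy cells, became smaller. In mossy cells the log2 fold change of Inhba was 0.75 ± 0.46 without it and 1.87 ± 0.63 with it (adjusted p = 0.349 and 0.0692, edgeR). The values for Nptx2 were 0.14 ± 0.19 and 0.66 ± 0.33 (adjusted p = 0.728 and 0.233, edgeR), and for Fosb 0.17 ± 0.24 and 0.63 ± 0.33 (adjusted p = 0.723 and 0.265, edgeR). In hippocampus, Nptx2 was 0.25 ± 0.16 without the library and 0.94 ± 0.38 with it (adjusted p = 0.248 and 0.0691, edgeR). Inhba was 0.06 ± 0.15 and 0.93 ± 0.44 there (adjusted p = 0.793 and 0.110, edgeR). Fosb in hippocampus was -0.15 ± 0.12 without the library and 0.02 ± 0.16 with it, and Egr3 was -0.08 ± 0.10 and 0.02 ± 0.12, none past the threshold. Npas4 in hippocampus was larger, with 1.05 ± 0.25 without the library (adjusted p = 0.00788, edgeR). The counts of the 10 genes called were the same as with it, 0 in mossy cells where 8.26% of 14131 genes were called and 1 in hippocampus where 26.5% of 15506 were called.

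The difference between the fluoxetine effects of 2 sources was tested directly, and 0 of the 10 genes passed in any of the 3 tests. The background was 0.044% of 15922 genes for mossy cells minus hippocampus, 0.181% of 15444 genes for granule cells minus mossy cells and 1.98% of 16124 genes for granule cells minus hippocampus. The first of these is from a fit without pairs, though mossy-cell and hippocampus libraries of the same number deviated together. With replicate number as a block that test called more genes over all, as given in the processing section, and still 0 of the 10. The counts at an unadjusted p under 0.05 were 1, 3 and 2 of the 10, against 11.2%, 13.9% and 19.8% of all genes. Arc, with a negative fold in granule cells and positive ones elsewhere, differed by -0.85 ± 0.26 on the log2 scale between granule and mossy cells (adjusted p = 0.141, edgeR) and by -0.72 ± 0.23 between granule cells and hippocampus (adjusted p = 0.0830, edgeR). Npas4 differed by -2.32 ± 0.74 between granule cells and hippocampus (adjusted p = 0.0839, edgeR). DESeq2's Wald test called these last 2 differences (adjusted p = 0.0357 for Arc and 0.0257 for Npas4). Over all genes, granule cells minus hippocampus called 180 higher and 140 lower in edgeR. The alternative fits called 0 to 495 higher and 0 to 542 lower. In edgeR fits without 1 library, leaving out vehicle library 3 of granule cells gave -0.83 for Arc (adjusted p = 0.0335), and leaving out vehicle library 1 gave -2.69 for Npas4 (adjusted p = 0.0307). Leaving out fluoxetine library 4 of granule cells gave -2.98 for Inhba (adjusted p = 0.0419, edgeR). For Npas4 between mossy cells and hippocampus the difference was -1.13 ± 0.73 (adjusted p = 0.562, edgeR), so the larger fold in hippocampus was not shown to differ from that in mossy cells.

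The sources were compared in the vehicle groups. Under vehicle, mossy cells had more Fos and Nptx2 and less Arc, Egr3 and Inhba than hippocampus, and granule cells had more Inhba and Arc and less Nptx2 than mossy cells. The counts were 5 of 10 genes for mossy cells against hippocampus, where 64.0% of 15922 genes were called (31.3% higher and 32.8% lower), and 3 of 10 for granule against mossy cells, where 46.1% of 15444 were (23.8% higher and 22.4% lower). For granule cells against hippocampus it was 2 of 10, Fos and Fosb, both higher in granule cells, where 29.7% of 16124 genes were called and 16.5% called higher. In total, none of the 3 counts was above the share of all genes called in either direction, while the 2 higher in granule cells than in hippocampus were slightly above the share called higher. The comparison of mossy cells with hippocampus is from a fit without pairs, though their same-numbered libraries deviated together. With replicate number as a block, Egr1 was also called lower in mossy cells, as given below. The 3 tables were joined on the symbol, and the source cannot be told apart from whatever else differed in making each table's libraries.

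Inhba differed most. Under vehicle it had 15.9, 7.42, 9.87 and 22.4 CPM in granule cells, against 0.403 to 1.25 CPM in mossy cells (median 0.863) and 4.24 to 6.24 CPM in hippocampus (median 4.77). The 3 groups did not overlap, with granule cells highest and mossy cells lowest. Granule cells exceeded mossy cells 15.8-fold, a log2 fold change of 3.98 ± 0.76 (adjusted p = 0.000117, edgeR), and mossy cells over hippocampus gave a log2 fold change of -2.52 ± 0.63 (adjusted p = 0.000903, edgeR). Granule cells against hippocampus gave 1.51 ± 0.60 (adjusted p = 0.0595, edgeR), and the same value with adjusted p = 0.0157 when fluoxetine library 2 of hippocampus, which widens the spread of that fit, was left out.

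Nptx2 was highest in mossy cells. It had 9.41 to 15.5 CPM in mossy cells (median 11.4), against 3.40 to 6.08 CPM in hippocampus (median 4.92) and 2.71, 6.6, 3.90 and 7.28 CPM in granule cells. Mossy cells overlapped neither of the others, which overlapped each other. The log2 fold change was 1.3 ± 0.41 for mossy cells over hippocampus (adjusted p = 0.00686, edgeR) and -1.24 ± 0.40 for granule over mossy cells (adjusted p = 0.0134, edgeR). Without vehicle library 1 of granule cells granule over mossy cells gave -1.04 (adjusted p = 0.0501, edgeR), and with a correction for GC content and length -0.62 (adjusted p = 0.198).

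Arc had 26.3 to 39.8 CPM in mossy cells (median 34.3), against 38.3 to 59.8 CPM in hippocampus (median 52.1). The ranges met only at their ends, and the log2 fold change of mossy cells over hippocampus was -0.60 ± 0.13 (adjusted p = 0.000179, edgeR). Granule cells, at 43.7, 74.1, 40.7 and 53.2 CPM, were above every mossy-cell library, with a log2 fold change of 0.61 ± 0.18 over mossy cells (adjusted p = 0.00825, edgeR) and of 0.05 ± 0.16 over hippocampus (adjusted p = 0.855, edgeR). Without vehicle library 2 of granule cells the first of these was 0.40 (adjusted p = 0.0807, edgeR). Egr3 had 16.5 to 28.7 CPM in mossy cells (median 23.8) and 26.8 to 38.3 CPM in hippocampus (median 31.6), with little overlap. Its log2 fold change was -0.43 ± 0.16 (adjusted p = 0.0170, edgeR), and -0.34 without vehicle library 3 of mossy cells (adjusted p = 0.0607, edgeR).

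Fos had 2.45 to 6.5 CPM in mossy cells (median 3.96), 2.51, 9.05, 3.55 and 5.05 CPM in granule cells, and 1.56 to 2.78 CPM in hippocampus (median 1.90). Hippocampus was lowest and overlapped the low end of both. The log2 fold change over hippocampus was 0.97 ± 0.29 in mossy cells (adjusted p = 0.00498, edgeR) and 1.28 ± 0.44 in granule cells (adjusted p = 0.0296, edgeR). The granule-cell difference was 0.84 without vehicle library 2 of granule cells (adjusted p = 0.169, edgeR), and leaving out vehicle library 2, 3 or 4 of hippocampus gave an adjusted p of 0.0566, 0.0550 or 0.0533. Fosb had 7.41, 15.8, 8.11 and 8.0 CPM in granule cells, against 4.78 to 6.62 CPM in hippocampus (median 5.8). The groups did not overlap, and the log2 fold change was 0.80 ± 0.25 (adjusted p = 0.0181, edgeR), or 0.48 without vehicle library 2 of granule cells (adjusted p = 0.147, edgeR). Every granule-cell library was also above the mossy-cell range of 4.29 to 5.48 CPM, with a log2 fold change of 0.90 ± 0.38 (adjusted p = 0.0570, edgeR), and adjusted p = 0.0177 without fluoxetine library 2, whose Fosb level widens the spread of that fit.

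Nr4a1 had 11.6, 41.8, 24.9 and 32.3 CPM in granule cells, against 16.3 to 19.9 CPM in hippocampus (median 19.1). Of the granule-cell libraries, 3 lay above every hippocampus library and library 1 below them all. The log2 fold change was 0.56 ± 0.22 (adjusted p = 0.0592, edgeR), and 0.81 without that library (adjusted p = 0.00175, edgeR).

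Egr1 had 102 to 173 CPM in mossy cells (median 131), against 135 to 177 CPM in hippocampus (median 160), and 83.1, 190, 105 and 191 CPM in granule cells. The mossy-cell libraries reached lower than those of hippocampus, with a log2 fold change of -0.27 ± 0.17 (adjusted p = 0.162, edgeR). Libraries of mossy cells and hippocampus with the same number deviated together. With the replicate block that this pairing calls for, the value was -0.28 (adjusted p = 0.00426, edgeR), which made 6 of 10 genes called. Without the block, 64.0% of all 15922 tested genes were called. The alternative fits, the block among them, called 3731 to 5575 genes higher and 3728 to 6069 lower. The Egr1 difference also passed with upper quartile scaling (-0.38), at a mean CPM of at least 5 (-0.38), with limma-voom (-0.33) and with the GC content correction (-0.60). No difference of Npas4 between sources passed under vehicle, where its log2 fold changes lay between -0.05 and 0.06 with standard errors from 0.52 to 0.78. Junb had a log2 fold change of 0.03 ± 0.17 between mossy cells and hippocampus (adjusted p = 0.893, edgeR), which turned to -0.46 with a correction for GC content and length (adjusted p = 0.0118). Junb shares 7.5% of its exon bases with Prdx2 on the opposite strand, and it is not stated whether the counting used strand. None of the other 9 genes shared exon bases with an annotated gene.

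**Figure D3:**
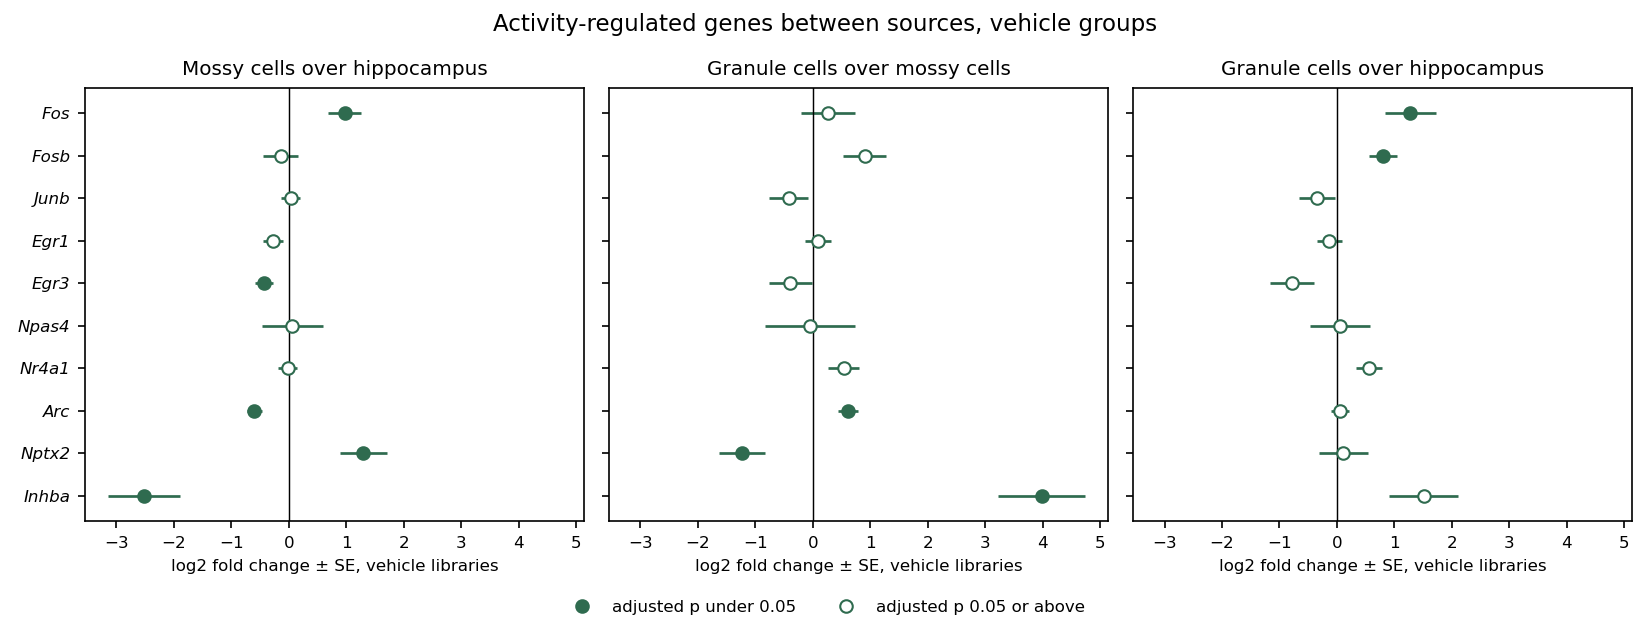
Fitted log2 fold change between sources in the vehicle groups, with its standard error, for each gene. Filled points have an adjusted p under 0.05. Inhba spans from -2.52 for mossy cells over hippocampus to 3.98 for granule over mossy cells, and Npas4 stays near 0 in each panel.

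Other genes of the pathway were taken from lists, each described by its counts. Of 17 further activity-regulated transcription factor genes, 14 were tested in mossy cells and 0 passed with fluoxetine (9.31% of all genes did). In hippocampus 2 of 16 fell: Bhlhe40, a repressor of the clock, with a log2 fold change of -0.35 ± 0.07 (adjusted p = 0.00238, edgeR), and Jun, the AP-1 partner of Fos, with -0.19 ± 0.07 (adjusted p = 0.0379, edgeR). In granule cells 0 of 15 passed. The other lists held 26 effector genes, 25 upstream signalling genes, 22 partners of the 10 proteins and 17 activin pathway genes. Their fluoxetine counts stand against 9.31% of all genes called in mossy cells, 30.2% in hippocampus and 0.0% in granule cells.

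Among effectors in mossy cells 4 of 25 rose with fluoxetine and 0 fell. Vgf, which encodes a secreted neuropeptide precursor, averaged 137 ± 43.2 CPM with fluoxetine and 78.4 ± 14.1 CPM with vehicle (log2 fold change 0.80 ± 0.17, adjusted p = 0.00498, edgeR). Scg2, the secretogranin II gene, averaged 290 ± 66.3 CPM with fluoxetine and 195 ± 21.7 CPM with vehicle (0.57 ± 0.13, adjusted p = 0.00714, edgeR). Penk, the enkephalin precursor gene, averaged 26.9 ± 14.8 CPM with fluoxetine and 12.4 ± 1.86 CPM with vehicle (1.11 ± 0.26, adjusted p = 0.0114, edgeR). These peptide genes passed where none of the 10 did. In hippocampus 4 of 26 effectors rose and 3 fell, with Scg2 at 0.46 ± 0.10 (adjusted p = 0.00380, edgeR) and Penk at 1.08 ± 0.34 (adjusted p = 0.0250, edgeR) among those higher. In granule cells 0 of 26 passed.

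Of the upstream genes in mossy cells 4 of 25 rose, led by Crtc1, a coactivator of CREB, at 0.46 ± 0.10 (adjusted p = 0.00628, edgeR) and Cacna1c, an L-type calcium channel gene, at 0.56 ± 0.12 (adjusted p = 0.00752, edgeR). In hippocampus 8 of 25 fell and 1 rose, where 30.2% of all genes were called. Ppp3ca, a calcineurin subunit gene, had a log2 fold change of -0.33 ± 0.06 (adjusted p = 0.00186, edgeR), and Cacna1c, the 1 that rose, of 0.40 ± 0.09 (adjusted p = 0.00375, edgeR). Granule cell markers were lower in the same hippocampus libraries, as given above, and their part in these values was not tested. In granule cells 0 of 25 passed. The difference of the fluoxetine effects between granule cells and hippocampus passed for 2 of 25, where 1.98% of all genes passed. Ppp3ca was 1 of them (0.68 ± 0.18, adjusted p = 0.0424, edgeR). Without fluoxetine library 2 of hippocampus, 0 of 25 passed.

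Of the partners of the 10 proteins, 3 of 21 rose and 0 fell in mossy cells. Nptxr, the membrane receptor of the pentraxins, averaged 9.89 ± 3.72 CPM with fluoxetine and 4.98 ± 0.497 CPM with vehicle (0.99 ± 0.22, adjusted p = 0.00748, edgeR). Nptx1, the pentraxin that pairs with Nptx2, changed by 0.87 ± 0.22 (adjusted p = 0.0156, edgeR), and Gria1, an AMPA receptor subunit gene, by 0.45 ± 0.11 (adjusted p = 0.00971, edgeR). In hippocampus 3 of 21 rose and 1 fell, with Nptx1 at 0.31 ± 0.07 (adjusted p = 0.00542, edgeR) and Gria1 at 0.23 ± 0.06 (adjusted p = 0.00702, edgeR). In granule cells 0 of 20 passed. Of the activin pathway, 1 of 14 rose in mossy cells, the type I receptor gene Acvr1b at 0.45 ± 0.10 (adjusted p = 0.00606, edgeR). In hippocampus 4 of 14 rose, Inha (0.59 ± 0.18, adjusted p = 0.0224, edgeR) and Acvr1b (0.28 ± 0.09, adjusted p = 0.0225, edgeR) among them, and 1, Smad2, fell (-0.28 ± 0.07, adjusted p = 0.00796, edgeR). In granule cells 0 of 14 passed. The median log2 fold change of the 10 genes was 0.20 in mossy cells, 0.02 in hippocampus and -0.44 in granule cells, against -0.003, 0.001 and 0.009 over all genes tested.

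Under vehicle, 9 of 15 tested activin pathway genes were lower in mossy cells than in hippocampus and 0 higher, where 64.0% of all genes were called and 32.8% called lower. They include the activin receptor gene Acvr2a at -1.02 ± 0.12 (adjusted p = 8.45e-09, edgeR) and the inhibitory Smad7 at -1.11 ± 0.14 (adjusted p = 9.21e-08, edgeR). Of 14 tested between granule and mossy cells 7 were higher in granule cells and 1 lower, where 46.1% of all genes were called and 23.8% called higher, with Acvr1c, another activin receptor gene, at 2.22 ± 0.33 (adjusted p = 5.05e-06, edgeR) and Smad3, a signal transducer of activin, at 1.34 ± 0.16 (adjusted p = 2.75e-07, edgeR). The further transcription factor genes were higher in granule than in mossy cells for 9 of 16 and lower for 1, against the same shares of all genes. Btg2, an antiproliferative factor gene, led them at 3.12 ± 0.30 (adjusted p = 7.86e-09, edgeR), and Nr4a3, a close relative of Nr4a1, was the 1 lower, at -1.48 ± 0.23 (adjusted p = 8.48e-06, edgeR).

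Within groups, some of the genes varied together. Over 34 libraries, with log2 CPM centred within each of the 6 groups, Pearson's r was 0.75 for Junb and Nr4a1, 0.71 for Npas4 and Nr4a1, 0.69 for Egr1 and Nr4a1 and 0.66 for Junb and Npas4. Without fluoxetine library 2 (32 libraries) these were 0.73, 0.69, 0.63 and 0.64. Nptx2 gave 0.65 with Fosb and 0.61 with Inhba over 34 libraries, and 0.31 and 0.13 without fluoxetine library 2. Inhba, with r from -0.49 to 0.13 to the other 9 without that library, did not follow them. Arc gave r from -0.09 to 0.38. These are descriptions without a test, since the points share library depth and makeup.

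**Figure D4:**
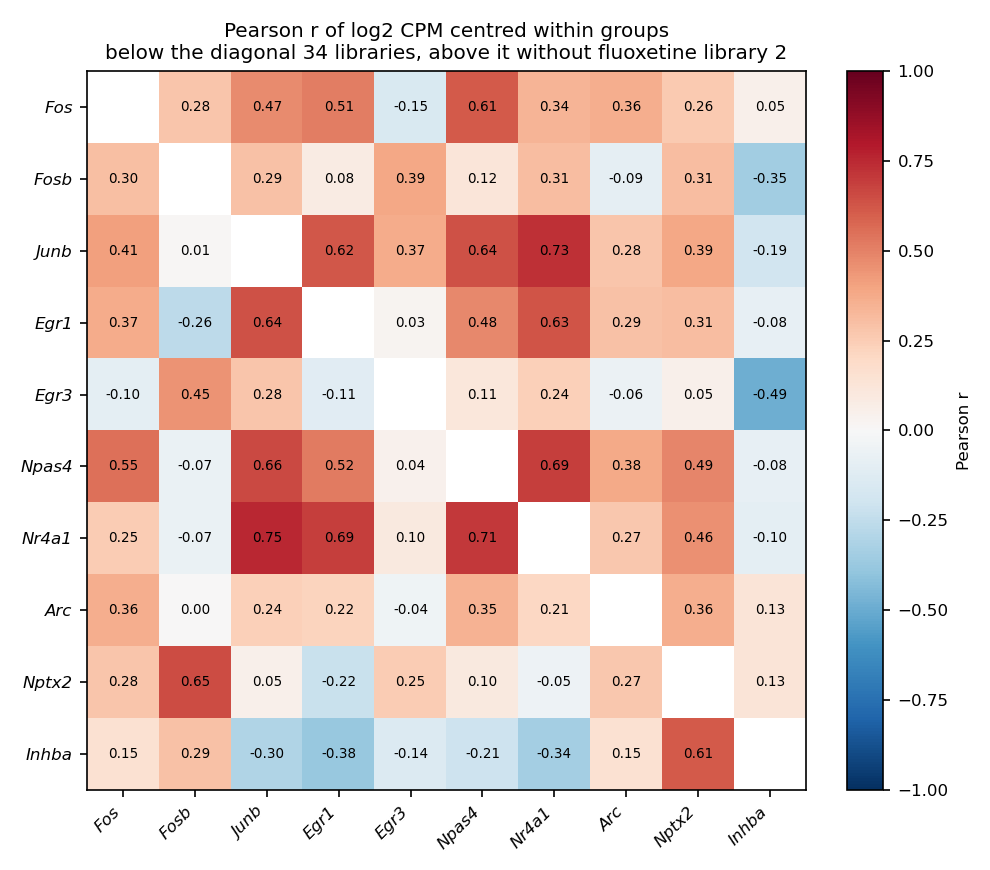
Pearson's r between genes over libraries, on log2 CPM centred within each of the 6 groups, with 34 libraries below the diagonal and the 32 without fluoxetine library 2 above it. Junb, Egr1, Npas4 and Nr4a1 give 0.52 to 0.75 with each other below the diagonal, and the 0.65 of Nptx2 with Fosb is 0.31 above it.

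Among 11142 genes outside the group, those whose centred levels were most like the mean of the 10 were Ache, the acetylcholinesterase gene (r = 0.82 over 34 libraries), and Vgf (0.73). Pih1d1 (0.71), Unc45a (0.70), Creb3l2 (0.68), Fmnl1, Map7d1 and Aup1 (0.67 each) followed. For single genes, Npas4 was most like Nr4a1 (0.71), Inhba was most like Prss23 (0.87, or 0.73 without fluoxetine library 2), and Nptx2 was most like Pmepa1 (0.76, or 0.53 without it). Egr3 was most like Zfp703 (0.92 with and without that library), a gene outside the set, rather than like Egr1, with which its r was -0.11.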

How the data were processed

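Gene counts were deposited by the authors as 3 tables of raw counts (mossy cells, hippocampus, granule cells), one column per library, with no normalization. Per the labels' protocols, RNA came from translating ribosome affinity purification, was amplified from 500 pg and was read as 50-base pairs. The submitters' processing notes name STAR 2.5.2b, HTSeq 0.7.2, edgeR and GRCm38; the annotation and the use of strand are not given in the sources used here. The tables' columns were assigned to libraries by name.

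Tests used edgeR 4.0.16 (R 4.3.3) with TMM scaling, filterByExpr and the quasi-likelihood test, with Benjamini-Hochberg adjustment over all genes tested and a threshold of 0.05. Fluoxetine was tested within each source. Sources, and differences between fluoxetine effects, were tested in fits of 2 sources. DESeq2 1.42.0 and limma 3.58.1 gave alternatives. CPM levels used TMM factors over all 34 libraries. The fitting steps were tested on simulated data. Mossy-cell and hippocampus libraries of the same number deviated together (r from 0.10 to 0.55 in 7 fluoxetine pairs, 0.15 to 0.34 in 6 vehicle pairs), so a replicate block was also fitted there. It moved the genes called for the difference of their fluoxetine effects from 1 higher and 6 lower to 50 higher and 66 lower.

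From each pathway list, up to 3 genes past the threshold were named by smallest p; the 8 genes most like the mean of the 10 were named by Pearson's r. The 10 genes, the lists and these rules were chosen with earlier results of these data known. Library totals of 14111950 to 44952269 counts limit the precision of genes near 1 CPM. The Egr1 promoter is not shown, and values of 1 gene of the upstream signalling list are not reported here.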

Additional observations from a re-analysis of the deposited data

Results flagged for a closer look

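In 60 sets of 4 to 7 libraries (10 genes in 6 groups), the highest or lowest library stood apart by Dixon's criterion in 13. Chance gives about 1 in 20 for independent sets with a normal spread. The sets here share libraries, and mossy-cell and hippocampus libraries of the same number deviated together. The count of 13 is therefore a description and not a test. Of the 13, 7 were fluoxetine library 2 of mossy cells or hippocampus. They were Fosb (20.9 CPM in mossy cells and 9.67 CPM in hippocampus), Egr3 in mossy cells (49.8 CPM), Nptx2 (52.2 and 30.3 CPM) and Inhba (13.2 and 34.9 CPM), each the highest of its group. Fluoxetine library 6 of mossy cells was the highest for Npas4 (7.94 CPM) and Nr4a1 (29.6 CPM). Fluoxetine library 4 of granule cells was the highest for Inhba (26.4 CPM), and vehicle library 2 of granule cells was the highest for Fosb (15.8 CPM). Vehicle library 2 of mossy cells was the lowest for Fosb (4.29 CPM), and vehicle library 4 of hippocampus was the lowest for Nr4a1 (16.3 CPM).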

How the results depend on the processing

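Of 2659 values of the 10 genes under other settings, 2541 kept their direction and their side of the threshold or moved within their error, 61 newly passed, 15 no longer passed, 41 moved and 1 reversed. The reversal was Junb in mossy cells over hippocampus, at -0.46 after correcting for GC content and length, against 0.03 as reported. Of the 10 genes, fluoxetine in mossy cells called 0; DESeq2's Wald test called 3 (it replaces outlying counts in groups of 7), limma-voom 2, the replicate block 1, and fits without 1 library 0 to 1 (Inhba without fluoxetine 1 or 3, Egr3 without fluoxetine 7). In hippocampus the count was 1, against 2 with upper quartile scaling, with DESeq2 and without Rn45s and Lars2 (Npas4 and Arc in each), 3 with the replicate block (Npas4, and Junb and Egr1 lower), 0 with all 34 libraries in 1 fit, and 1 to 3 without 1 library (Nptx2 joined without fluoxetine 5, Arc without fluoxetine 6 or vehicle 3, 5 or 6, Junb and Egr1 without fluoxetine 7). At a mean CPM of at least 5, Npas4 was not tested and the 1 gene called was Arc. In granule over mossy cells the count was 3, against 5 with all 34 libraries and 5 with the GC correction, and 3 to 4 without 1 library; Fosb also joined with upper quartile scaling, DESeq2, limma-voom, at a mean CPM of at least 5 and without fluoxetine library 2. In granule cells over hippocampus it was 2, against 1 at a mean CPM of at least 5, 0 with the replicate block, 1 with all 34 libraries, 3 with DESeq2, limma-voom and the GC correction (Nr4a1 joined), 3 without fluoxetine library 2 (Inhba joined), and 1 to 4 without 1 library (Nr4a1 and Inhba joined without fluoxetine 1 of granule cells). For the difference of fluoxetine effects it was 0; all 34 libraries gave 1 (Arc, granule minus mossy cells), and DESeq2 gave 2 for granule cells minus hippocampus, where fits without 1 library gave 0 to 1. The cause of these changes was not tested. In mossy cells over hippocampus it was 5, with 4 to 7 under other settings. The setting without fluoxetine library 2 was added after seeing the data.

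Over all genes, fluoxetine in hippocampus called 2411 higher and 2294 lower, against 78 and 21 with all 34 libraries. Fluoxetine in granule cells called 0, against 937 and 867. Fluoxetine in mossy cells called 1146 higher and 179 lower, with 783 to 1473 and 92 to 417 under other settings. In the same order, mossy cells over hippocampus called 4981 and 5216 (3731 to 5575 and 3728 to 6069). Granule over mossy cells called 3671 and 3452 (2484 to 4878 and 2815 to 4026). Granule cells over hippocampus called 2659 and 2123 (1004 to 2840 and 758 to 2822). Apart from mossy cells with hippocampus, same-numbered libraries were not taken as paired, since in each set of pairs at least 1 had r under 0.10. Over these sets r lay between -0.17 and 0.28, with the highest values in fluoxetine with vehicle granule cells (0.09 to 0.28, best match with the own number in 3 of 4), where the block called 0 of the 10. The replicate block removed the calls of Fos (1.26, adjusted p = 0.237) and Fosb (0.69, adjusted p = 0.202) in granule cells over hippocampus.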
